A study of Mus musculus with 2 samples.

Results

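The circadian clock genes Nr1d1, Nr1d2, Dbp, Tef, Per2, Per3, Arntl, Clock, Cry1 and Npas2 were examined in epididymal fat. The 10 genes were chosen by name, as parts of the mammalian clock or its outputs, with earlier results of these data known. Other clock genes, such as Per1 and Cry2, are described apart. All probe sets that the array's annotation pairs with the 10 names were taken. There were 11 such probe sets, and 10 of them named a clock gene alone. They measured 9 of the 10 genes, out of 22180 genes that could be named on the array. The only probe set of Per2 is also annotated to 9830107B12Rik, a gene on another chromosome, so its values are given apart and Per2 is left out of the counts.

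RNA came from male A/J-12SM mice, an A/J strain whose chromosome 12 is replaced by that of SM/J, and from male A/J mice. All were housed singly, ate a high-fat diet for 7 weeks from 6 weeks of age, and were killed between 13:00 and 14:00 after 4 h without food. The light cycle was 12 h, and the hour of lights on was not given in the sources used here. RNA of 3 mice was pooled for each of the 2 arrays, 1 per strain, so no difference below has a replicate, a standard error or a p-value, and "higher" and "lower" describe these 2 arrays. None of the 10 clock genes lies on chromosome 12, so the design does not replace any of them directly. Levels are log2 values after robust multi-array averaging (RMA), and a difference is the A/J-12SM level less the A/J level.

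In the clock of mammalian cells, BMAL1 (encoded by Arntl) pairs with CLOCK or NPAS2 on E-box sequences and turns on the Per, Cry and Nr1d genes and those of the PAR bZIP factors. PER and CRY proteins then block this pair, while the REV-ERB receptors (Nr1d1 and Nr1d2) repress Arntl through sites that ROR receptors also use. The PAR bZIP factors DBP and TEF act on D-box sequences, where NFIL3 competes with them. White fat has such a clock in its own cells, and feeding and glucocorticoids can shift it. Most of these transcripts rise and fall over the day, and because tissue was taken at a single time, a shift in timing and a change in daily mean cannot be told apart here.

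Both REV-ERB genes and both PAR bZIP genes had higher levels in A/J-12SM, and Arntl and Cry1 had lower ones. All 9 measured differences lay between -0.32 and 0.45 on the log2 scale. None passed 0.75, the limit the study set for its own selection (a 1.68-fold change), which 7.14% of all named genes passed. Without regard to size, 7 of the 9 were higher in A/J-12SM, as were 53.6% of all named genes. The median over the 9 genes was 0.22, against 0.03 over all named genes. At the smaller size of 0.25 (1.19-fold) or more, 4 of the 9 were higher in A/J-12SM, where 24.0% of all named genes were, and 1 was lower, where 20.1% were. With 9 genes that act on one another, these counts describe the list and were not tested.

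The promoters below are shown because they hold a sequence through which clock proteins are known to act. Each runs from 250 bases before to 50 after a transcription start in RefSeq (GRCm38.p6, the C57BL/6J sequence and not that of A/J or SM/J), 5′ to 3′ on the strand of the gene. Of the 10 clock genes, 9 had an entry, and Nfil3 is added because it competes with DBP and TEF. Capitals mark matches, on either strand (so that some read as the reverse complement), to the E-box CACGTG, the related form CACGTT (called the E′-box), the D-box motif TTATGTAA, or the 7 letters TAGGTCA, which are the core of the element bound by REV-ERB and ROR.
Nr1d1, chr11:98775328-98775627, minus strand: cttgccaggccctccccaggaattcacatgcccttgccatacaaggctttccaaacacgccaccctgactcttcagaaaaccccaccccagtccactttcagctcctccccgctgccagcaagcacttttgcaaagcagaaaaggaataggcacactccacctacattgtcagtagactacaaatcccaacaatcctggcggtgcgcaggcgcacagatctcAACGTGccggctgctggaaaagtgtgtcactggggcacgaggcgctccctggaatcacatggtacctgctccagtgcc
Per3, chr4:151044616-151044915, minus strand: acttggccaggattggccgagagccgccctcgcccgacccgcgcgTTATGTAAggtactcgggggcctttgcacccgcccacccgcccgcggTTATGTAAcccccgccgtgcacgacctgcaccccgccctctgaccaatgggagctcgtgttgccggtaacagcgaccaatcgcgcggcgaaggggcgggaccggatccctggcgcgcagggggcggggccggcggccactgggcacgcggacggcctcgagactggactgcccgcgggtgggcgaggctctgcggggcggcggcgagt
Tef, upstream start, chr15:81802423-81802722, plus strand: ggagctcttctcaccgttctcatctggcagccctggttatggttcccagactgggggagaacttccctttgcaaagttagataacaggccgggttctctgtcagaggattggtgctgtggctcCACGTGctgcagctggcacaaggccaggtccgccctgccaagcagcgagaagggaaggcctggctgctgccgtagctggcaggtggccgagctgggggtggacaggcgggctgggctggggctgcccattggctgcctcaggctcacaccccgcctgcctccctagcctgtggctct
Cry1, chr10:85185005-85185304, minus strand: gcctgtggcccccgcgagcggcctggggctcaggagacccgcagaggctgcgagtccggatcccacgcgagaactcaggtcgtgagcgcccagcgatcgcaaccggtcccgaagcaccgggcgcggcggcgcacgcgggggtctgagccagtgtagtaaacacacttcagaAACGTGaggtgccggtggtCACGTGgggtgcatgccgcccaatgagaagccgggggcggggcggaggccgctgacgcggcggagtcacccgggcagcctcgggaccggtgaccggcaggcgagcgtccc
Arntl, second start, chr7:113207261-113207560, plus strand: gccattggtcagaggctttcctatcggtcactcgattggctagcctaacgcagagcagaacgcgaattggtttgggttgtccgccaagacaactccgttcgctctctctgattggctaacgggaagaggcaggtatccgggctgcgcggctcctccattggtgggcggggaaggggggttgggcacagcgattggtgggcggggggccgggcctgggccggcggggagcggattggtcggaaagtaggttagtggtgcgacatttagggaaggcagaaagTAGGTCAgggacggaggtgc
Nfil3, chr13:52980990-52981289, minus strand: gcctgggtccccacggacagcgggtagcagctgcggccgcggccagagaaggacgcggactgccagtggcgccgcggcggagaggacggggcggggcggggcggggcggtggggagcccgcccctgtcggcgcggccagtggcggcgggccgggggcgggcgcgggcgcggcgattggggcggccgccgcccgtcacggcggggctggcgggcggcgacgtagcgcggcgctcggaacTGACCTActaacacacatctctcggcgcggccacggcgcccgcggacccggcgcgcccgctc

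Per3 held 2 copies of the D-box, 205 and 158 bases before the start, and no other motif. Tef had an E-box in both of its windows, 127 and 138 bases before the start of each, of which the first is printed. Cry1 had an E-box 60 bases before the start and the CACGTT form 79 bases before it. Nr1d1 had the CACGTT form 28 bases before the start. TAGGTCA was found 31 bases after the second start of Arntl and, on the opposite strand, 12 bases before that of Nfil3. Clock, Npas2, Nr1d2 and Dbp matched none of the 4 motifs in these windows. Among 27025 genes with such windows, 8.09% held the E-box, 5.44% CACGTT, 1.11% the D-box and 2.97% TAGGTCA. Arntl and the added Nfil3, which hold TAGGTCA, had lower levels with the A/J-12SM pool, as did 46.3% of all named genes. The E-box or CACGTT genes went both ways, Tef and Nr1d1 being higher and Cry1 lower. Of the other clock genes described below, Per1, Cry2, Bhlhe41 and Ciart also held 1 of these 2 forms, as did Rorb. Per1, Cry2 and Rorb were higher, and Bhlhe41 and Ciart lower. Rorb had levels of 4.14 in A/J-12SM and 3.86 in A/J, too low to be separated from background. Whether the motifs relate to the levels was not tested. A match describes these letters and not the binding of a factor.

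**Figure D1:**
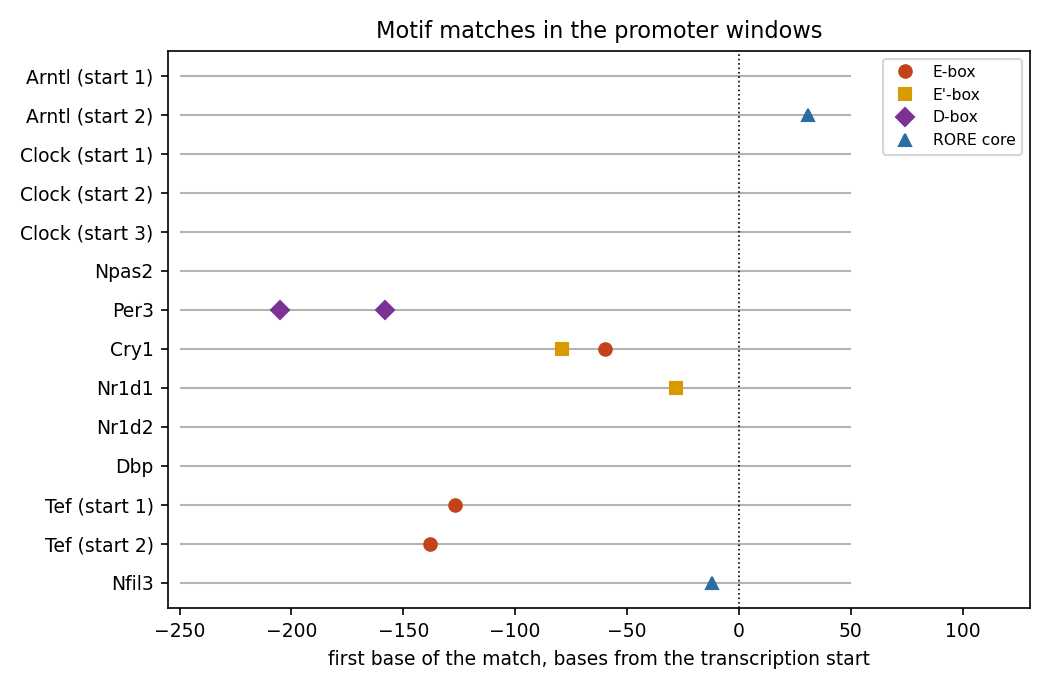
First base of each motif match, in bases from the transcription start, for every promoter window of the clock genes and Nfil3 (horizontal lines, 250 bases before to 50 after the start). Per3 carries both D-boxes, Cry1 an E-box next to the CACGTT form, and Arntl and Nfil3 the core of the REV-ERB and ROR element.

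Of the activators, Arntl was the gene that differed. Its level was 7.21 in A/J-12SM and 7.52 in A/J, 1.25-fold higher in A/J (difference -0.32). Clock, the partner of BMAL1, had levels of 10.65 with the A/J-12SM pool and 10.64 with the A/J pool (0.01), a difference whose sign turned under centring and quantile scaling. Npas2, which can stand in for CLOCK, had levels of 5.91 in A/J-12SM and 5.78 in A/J (0.14). Of the 3 activators, 1 was thus lower by more than 0.25, and the other two lay within 0.14 of 0.

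The REV-ERB genes were higher in A/J-12SM. Nr1d1, which encodes REV-ERB alpha, had a level of 9.66 with the A/J-12SM pool and 9.23 with the A/J pool, a 1.35-fold difference (0.43). Nr1d2, which encodes REV-ERB beta, had 8.20 in A/J-12SM and 7.98 in A/J, a 1.17-fold difference (0.22). Nr1d1 was thus higher and Arntl lower (0.43 and -0.32), and whether REV-ERB alpha acted on Arntl in these samples was not tested.

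The PAR bZIP genes were higher as well. Dbp, a clock output that is itself a transcription factor, had levels of 8.70 in A/J-12SM and 8.26 in A/J, and at 0.45 (1.36-fold) its difference was the highest of the 9. Tef had 5.44 in A/J-12SM and 5.08 in A/J on its brighter probe set (0.36). The dimmer Tef probe set had 4.48 in A/J-12SM and 4.11 in A/J (0.37), close to the median level of all probe sets (4.43 in A/J-12SM and 4.40 in A/J), where a level cannot be separated from background. The A/J value of the dimmer set is one that 16 probe sets of that array share.

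Of the repressor genes, Per3 was higher and Cry1 lower. Per3 had levels of 6.90 in A/J-12SM and 6.65 in A/J (0.25, 1.19-fold). Cry1, whose protein blocks the activator pair, had 5.43 in A/J-12SM and 5.66 in A/J (-0.23). The probe set shared by Per2 and 9830107B12Rik had levels of 6.55 in A/J-12SM and 5.78 in A/J (0.77, 1.71-fold), more than any of the 9 genes. The probe set that names 9830107B12Rik alone had 3.87 in A/J-12SM and 3.79 in A/J (0.08). How much of the shared signal comes from Per2 was not tested.

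**Figure D2:**
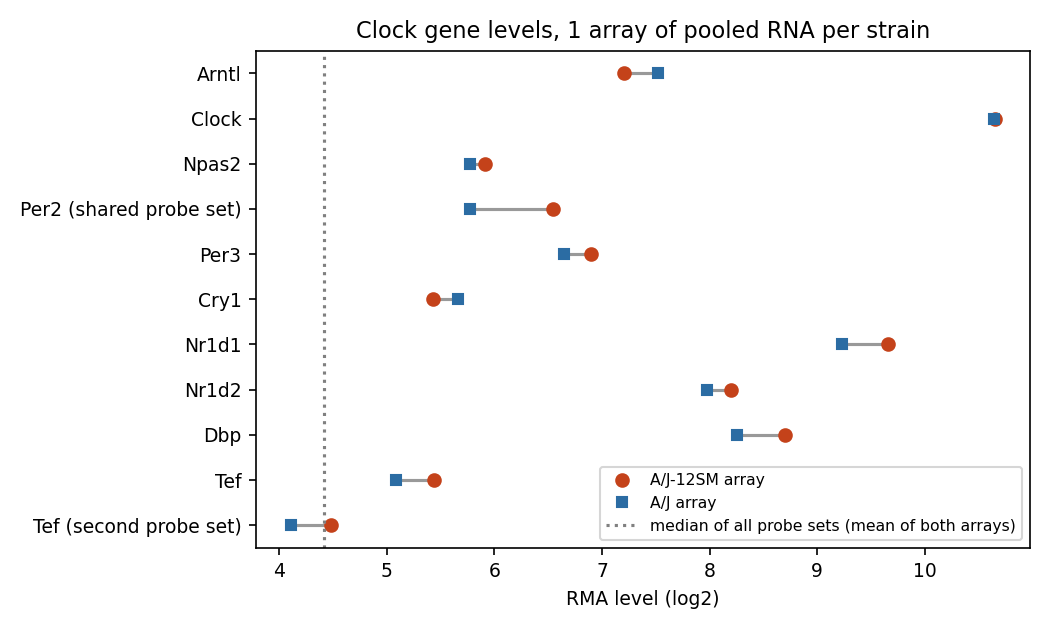
RMA level (log2) of each clock gene probe set on the A/J-12SM array (circles) and the A/J array (squares), with the median of all probe sets as a dotted line. Arntl and Cry1 are lower in A/J-12SM, and Clock is nearly equal. The other points lie to the right of their A/J partner, from 4.48 against 4.11 for the second Tef probe set to 9.66 against 9.23 for Nr1d1.

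With no replicates, these sizes were set against how far other genes of like level lay apart on the same arrays. That spread also holds any real differences between the pools. As another gauge, the 2 differences of the 968 genes with 2 probe sets lay a median of 0.28 apart. Genes with a mean level from 9 to 10 had an SD of 0.32 in their differences, those from 8 to 9 one of 0.35, and those from 5 to 6 one of 0.54. By that measure Nr1d1 lay 1.36 and Dbp 1.27 SD above 0, and the other 7 of the 9 genes lay within 1 SD, with Arntl at -0.86. Of all named genes 10.5% lay more than 1 SD above 0. Dbp ranked 2391 from the top of 22180 genes and Nr1d1 2563, while Arntl ranked 3510 from the bottom. These ranks take in genes of all levels. Among genes of like level, Dbp lay just below the 95th percentile at 8 to 9 (0.45) and Nr1d1 just below that at 9 to 10 (0.43). Arntl stayed above the 5th percentile at 7 to 8 (-0.55). Cry1, Npas2 and Tef stayed below a level of 6 on both arrays, where the spread was wider. Of the 6 genes that reached it, 3 were at 0.25 or more, against 16.2% of the 8643 named genes at that level, and 1 was at -0.25 or less, against 21.5%.

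**Figure D3:**
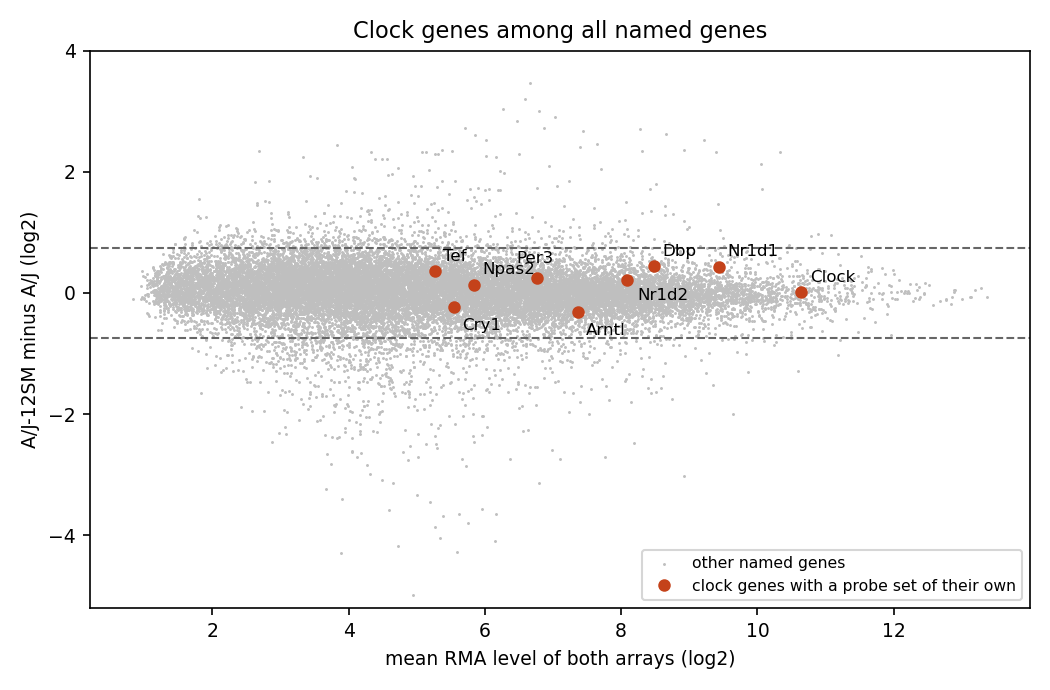
Difference (A/J-12SM minus A/J, log2) against mean level of both arrays for all named genes (grey) and the 9 clock genes with a probe set of their own (orange), with dashed lines at 0.75 and -0.75. The clock genes lie inside the dashed lines and inside the cloud of genes at their level, from Arntl at -0.32 to Dbp at 0.45.

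Other clock genes went both ways. Hlf, the third PAR bZIP factor, had levels of 5.68 in A/J-12SM and 5.09 in A/J (0.59, 1.51-fold). All 3 PAR bZIP genes were thus higher in A/J-12SM, as were 53.6% of all named genes. Hlf and Tef stayed below a level of 6 on both arrays, where the spread was wider, and Hlf lay 1.11 SD above 0. Nfil3, the repressor at the same D-box sites, had 5.43 in A/J-12SM and 6.17 in A/J, 1.67-fold higher in A/J (-0.74) and just short of the 0.75 limit. Cry2, the paralog of Cry1, had 7.21 in A/J-12SM and 6.73 in A/J (0.47). A probe set it shares with an overlapping non-coding RNA had 4.29 in A/J-12SM and 4.11 in A/J (0.18). These levels lie near the array medians and cannot be separated from background. Per1 had 8.58 in A/J-12SM and 8.21 in A/J (0.37). The Cry paralogs thus went opposite ways, while Per1 and Per3 were both higher in A/J-12SM.

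The other E-box repressors of the clock had small negative differences. Bhlhe40 (DEC1) had levels of 8.17 in A/J-12SM and 8.43 in A/J (-0.27), and Bhlhe41 (DEC2) had 6.21 in A/J-12SM and 6.39 in A/J (-0.18). Ciart, a repressor of the BMAL1 and CLOCK pair, had low levels of 4.52 in A/J-12SM and 4.68 in A/J (-0.16). Rora, which activates Arntl, had equal levels of 7.74 on both arrays (-0.01). Of the 10 measured genes of this list, 4 were at 0.25 or more and 2 at -0.25 or less, against 24.0% and 20.1% of all named genes. Rorb, at background levels, was 1 of the 4 (0.28). None of the 10 passed 0.75, against 7.14%.

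Enzymes and cofactors that act on clock proteins had a median difference of -0.01. Of 15 measured, such as the kinase gene Csnk1e and the NAD-dependent deacetylase gene Sirt1, 12 lay within 0.25 of 0, as did 55.9% of all named genes. Of the 15, 1 was at 0.25 or more and 2 at -0.25 or less, against 24.0% and 20.1% of all named genes. The highest was Kdm5a, a histone demethylase that aids the activator pair, at 0.31 (0.85 SD of genes at like level). The lowest was Gsk3b, a kinase of several clock proteins, at -0.40 (-1.24 SD).

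Genes listed as clock outputs were lower in A/J-12SM in 6 of 7 cases, against 46.3% of all named genes, with a median of -0.23. All 7 reached a level of 6 on the brighter array, and of the 8643 named genes that did so 4645 were lower. Usp2, which encodes a deubiquitinating enzyme, had levels of 6.59 in A/J-12SM and 7.39 in A/J, and at -0.80 (1.74-fold higher in A/J) it was the one gene of the 7 past 0.75, a limit that 7.14% of all named genes passed. Wee1, a cell cycle kinase, had 5.99 in A/J-12SM and 6.43 in A/J (-0.44), and Leo1, a subunit of the PAF1 complex, had 6.32 in A/J-12SM and 6.73 in A/J (-0.40). Tsc22d3 (GILZ), which glucocorticoids also induce, was the exception, with 7.01 in A/J-12SM and 6.87 in A/J (0.14). Nampt, the NAD salvage enzyme that the clock drives, is the one listed clock-related gene on the exchanged chromosome 12, between Sh3yl1 and Nova1 in the interval the study calls R3. Its level was 8.08 in A/J-12SM and 8.30 in A/J (-0.22).

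**Figure D4:**
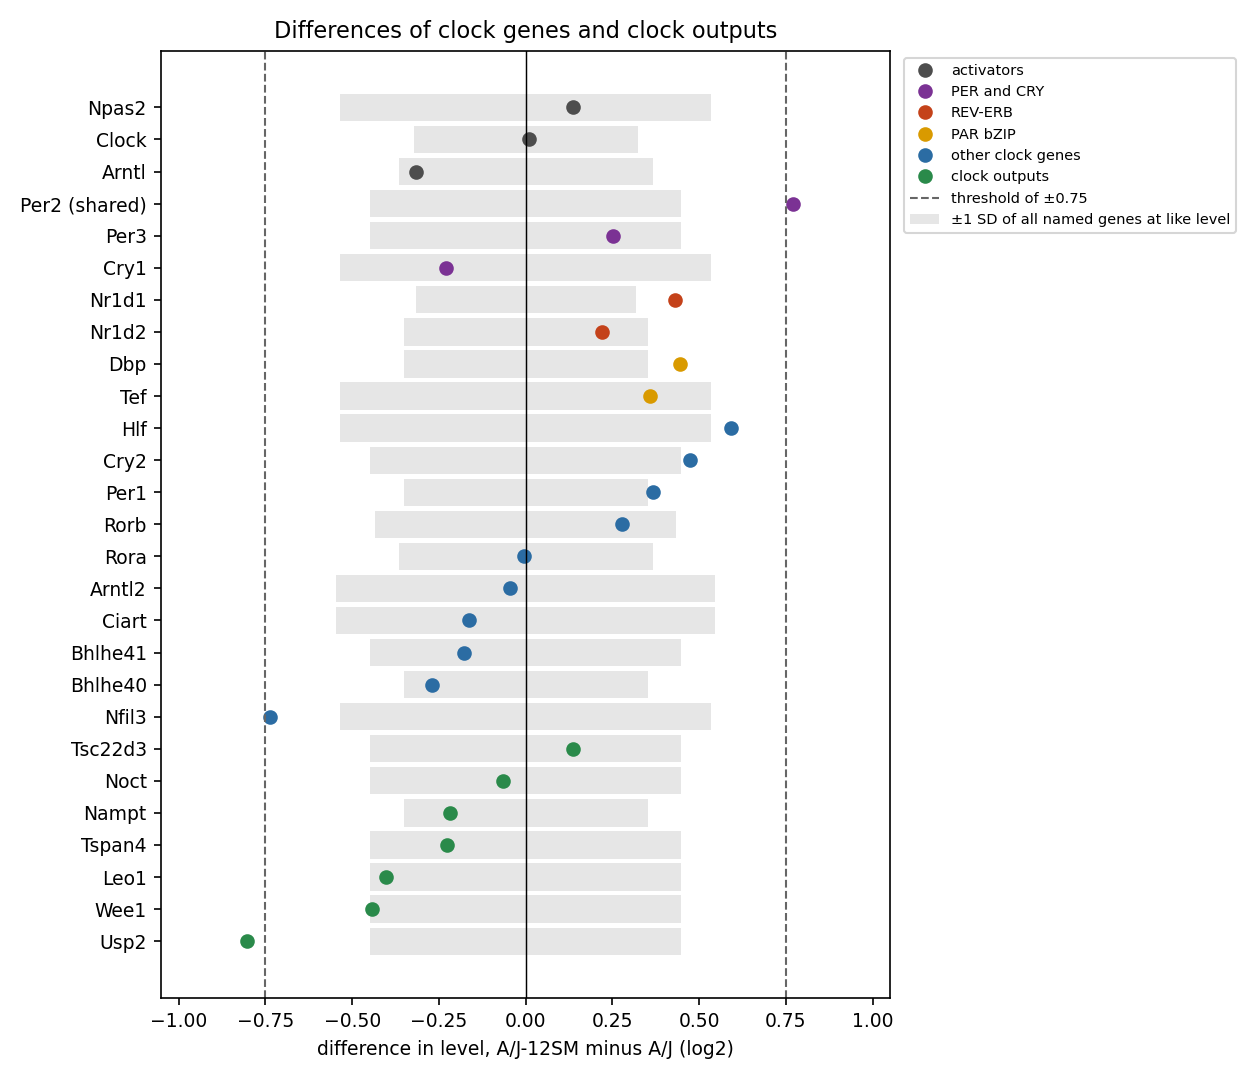
Difference in level (A/J-12SM minus A/J, log2) of the clock genes by role, the other clock genes and the clock outputs, with grey bars for 1 SD of all named genes at like level on either side of 0 and dashed lines at 0.75 and -0.75. The shared Per2 probe set (0.77), Hlf (0.59), Cry2 (0.47), Dbp (0.45), Nr1d1 (0.43) and Per1 (0.37) lie beyond 1 SD on the right, and Usp2 (-0.80) and Nfil3 (-0.74) on the left.

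Glucocorticoid-responsive genes, which share inputs with Per1 and Per2, showed no common direction. Of 8 measured, 4 were higher and 4 lower in A/J-12SM, with a median close to 0. Of the 8, 3 were at 0.25 or more, against 24.0% of all named genes, and 3 at -0.25 or less, against 20.1%. Zbtb16 (PLZF) had levels of 7.93 in A/J-12SM and 6.84 in A/J and passed 0.75 at 1.09. Cdkn1a had the lowest difference, at -0.59.

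Hepatocyte and male germ cell markers differed far more than the clock genes. All 12 hepatocyte markers (Alb, Apoa1, Apoa2, Apoh, Ahsg, Fga, Fgb, Fgg, Ambp, Cps1, Tat and Cyp2e1) were higher in A/J-12SM, with levels from 5.91 to 10.92 there and from 3.97 to 9.21 in A/J, and a median difference of 2.42. All 10 measured male germ cell markers, among them Mael, Smcp, Tnp1 and Tnp2, were lower, with levels from 1.65 to 4.58 in A/J-12SM and from 4.11 to 7.45 in A/J, and a median of -2.42. All 7 macrophage markers were lower (median -0.49), with Itgax at -1.37, Trem2 at -0.86 and Ctss at -0.78. Of all named genes, 53.6% were higher in A/J-12SM, 46.3% were lower and 7.14% passed 0.75 in either direction. The adipocyte markers were high on both arrays, from 7.65 to 12.43 in A/J-12SM and from 6.63 to 12.45 in A/J, with a median difference of 0.29. Of the 9 measured, 5 were higher by 0.25 or more, against 24.0% of all named genes, and the other 4 lay between -0.22 and -0.02. Slc2a4 at 1.03 and Adipoq at 0.93 passed 0.75. Mesothelial markers had a median of 0.35 with Upk1b at 1.17, and endothelial ones 0.12, with Tek at 0.65 and Emcn at -0.15. Epididymal markers had a median of 0.08, with Adam7, at low levels, at -0.80. Clock genes are expressed in liver too, and Usp2 is also a testis gene in the mouse. Of the 9 measured clock genes, 7 were higher in A/J-12SM, against 53.6% of all named genes, and 2 were lower. In pooled tissue RNA, a change in the cells present and a change in RNA per cell cannot be told apart, and the part of these cell types in the clock gene differences was not tested.

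**Figure D5:**
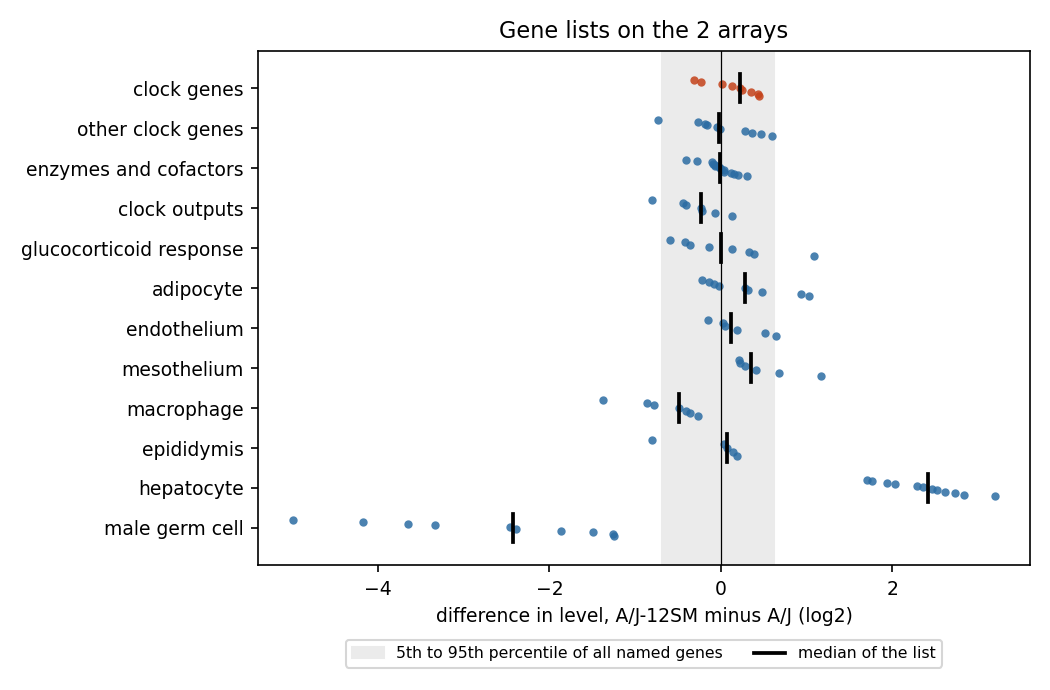
Difference in level (A/J-12SM minus A/J, log2) of each measured gene (points) by list, with the list's median (black bars) and the range from the 5th to the 95th percentile of all named genes (grey). The clock genes (orange) have a median of 0.22 and stay inside the grey range, while the hepatocyte and male germ cell markers lie at medians of 2.42 and -2.42.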

How the data were processed

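Expression in epididymal fat was measured on 2 Affymetrix Mouse Gene ST 2.0 arrays, 1 per strain, each with 100 ng of RNA pooled from 3 mice. The deposited values are log2 levels of 41345 probe sets, which the authors made with RMA-sketch in Affymetrix Expression Console 1.3.0. RMA equalizes the arrays, so a difference shared by most genes would be removed. Which probe annotation the authors used for the arrays is not given in the sources used here. Probe sets were named through GEO's platform annotation with symbols updated by RefSeq identifier: 23521 named 1 gene, 1820 several and 16004 none, and only the first kind was counted. A gene with several probe sets was represented by the brightest. Both sample columns were used.

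The A/J level was subtracted from the A/J-12SM level. With 1 array per strain no test was run, and the number of arrays limits the precision. The 10 genes, the gene lists and the alternatives were chosen with earlier results of these data known. Named genes were the 10, the main other clock genes, and of each list those past 0.75 or otherwise the highest and lowest with a level of at least 6; for the germ cell markers examples are given, and some values of list members outside this rule (Wee1, Leo1, Nampt, Tsc22d3, Cdkn1a) were chosen after they were seen. Scripts were tested on simulated data. Python 3.11.15, pandas 2.3.3, NumPy 2.4.6, statsmodels 0.14.6 and matplotlib 3.10.9 were used.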

Additional observations from a re-analysis of the deposited data

How the results depend on the processing

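No paired analysis was possible because each strain has 1 array. No clock gene passed 0.75 under centring, loess (span 0.3) or quantile scaling, and none passed a threshold of 0.5. The mean over probe sets could change only Tef, which had 0.36 there. A threshold of 1.0 and a level of at least 6 could not raise a count of 0, so they are no further check. Counting the shared probe set for Per2, an alternative chosen after seeing the data, made the count past 0.75 1 of 10. The median difference of the clock genes was 0.19 with centring, 0.24 with loess, 0.25 with quantile scaling, 0.24 at a level of at least 6 and 0.24 with the Per2 probe set. Lower clock genes at -0.25 or less numbered 2 with centring and 2 with loess, against 1, and higher ones at 0.25 or more between 3 and 5. Other clock genes past 0.75 numbered 1 with centring and 1 with loess, when Nfil3 crossed the limit, and 2 at a threshold of 0.5, against 0. Of the clock outputs, 0 passed a threshold of 1.0, against 1 at 0.75. Of 45 recomputed differences of single clock genes, 2 changed sign, both of Clock (-0.02 with centring and -0.00 with quantile scaling). The largest shift was 0.04. The 45 include values that could not change, so they overstate the number of checks. Counting the Per2 probe set could move no difference of a single gene, and the mean over probe sets only that of Tef. Centring, loess and quantile scaling were the settings that could move every gene. Levels near the array medians, as for the second Tef probe set, cannot be separated from background.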
